A study of Mus musculus with 64 samples.

Results

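The genes described here are the clustered histone genes of the mouse, read out in the ventral tegmental area of mice given an inhibitor of histone deacetylases. They were taken as every symbol of the count table that begins with Hist1h, Hist2h, Hist3h or Hist4h and has a mean of 1 or more counts over the 64 libraries. Of 24421 symbols in the table, 68 were clustered histone symbols, and 23 of those reached a mean of 1 count. Among the 23, Hist3h2bb-ps is annotated as a processed pseudogene, and it is counted below with the H2B members. The members nearest that limit were Hist1h2bb and Hist1h1b, each at a mean of 1.03 counts, and the nearest symbol below it was Hist1h1d, at 0.938 counts. The libraries came from adult male mice of strain 129S1/Svlm that carried the genotype label Wildtype or Clock delta 19 mutant, the latter a mutation of the circadian gene Clock. Each had received valproate (VPA), the compound ACY957 or the vehicle of either drug for 14 days. Tissue was collected at zeitgeber time 6, near 24 h past the final treatment. Punches of 1 mm were taken over the ventral tegmental area, a midbrain region that holds dopamine neurons, and each library was 1 mouse. By the labels, the wildtype groups held 8 mice under VPA, 3 under the VPA vehicle, 8 under ACY957 and 5 under the ACY957 vehicle. The mutant groups held 8 under VPA, 13 under the VPA vehicle, 8 under ACY957 and 11 under the ACY957 vehicle, whereas the study's design text describes 8 mice in each of the 8 groups. Doses were not given in the sources used here.

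Clustered histone genes encode most of the core histones H2A, H2B, H3 and H4 and the linker histone H1, and they lie in arrays of many near-identical copies. Their mRNAs are made mainly while DNA is replicated, and they end in a conserved stem-loop that binds the stem-loop binding protein instead of ending in a poly(A) tail. Some of these genes also have a polyadenylation site further downstream, which is used in cells that no longer divide, so that a library made from poly(A) RNA shows the polyadenylated fraction of their transcripts. VPA is a mood stabiliser that inhibits class I and class IIa histone deacetylases, and ACY957 is an inhibitor selective for the class I enzymes Hdac1 and Hdac2.

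Total counts ranged from 20.1 M to 37.5 M per library, with a median of 25.8 M, and group medians from 23.4 M to 32.5 M, the highest in the wildtype-labelled VPA mice. In 13 of the 64 libraries a score of 8 clock output genes lay on the other side of its widest gap from the side of their genotype label, and 9 of the 13 were vehicle libraries labelled mutant. Genotypes are therefore given as labels throughout, and drug effects also as the mean over both labels. In 4 of the 64 libraries the level of Th, the enzyme that defines dopamine neurons, was below 8 on the log2 CPM scale, with CPM the count relative to the scaled library total. These were VPA wildtype replicate 3, VPA mutant replicates 2 and 8 and VPA vehicle mutant replicate 3. In tissue punches, fewer cells of a type and less RNA per cell cannot be told apart.

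The 3′ ends are shown first, because the libraries were made from poly(A) RNA. All 23 members matched a gene of the GENCODE M21 annotation (build GRCm38), 17 of them in the Hist1 cluster on chromosome 13, 3 in the Hist2 cluster on chromosome 3 and 3 in the Hist3 cluster on chromosome 11. The 16 letters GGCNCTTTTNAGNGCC of the histone stem-loop, searched on the sense strand, were found in the annotated transcript of 15 of the 23 members. In all 15 they lay in the 3′ UTR, between 24 and 41 bases after the stop codon. The members that carried them had 1 of 4 forms, and the lines give the 16 letters in capitals with 5 bases on either side, from GENCODE M21 transcripts, with the coordinates of the 16 letters. They are shown for the 6 most abundant members that have the stem-loop, and for Hist2h4 and Hist1h2bb, so that all 4 forms appear.
Hist3h2ba (chr11:58949349-58949364, plus strand): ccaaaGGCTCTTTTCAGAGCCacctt
Hist1h1c (chr13:23739512-23739527, plus strand): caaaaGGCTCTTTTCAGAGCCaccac
Hist3h2a (chr11:58955172-58955187, plus strand): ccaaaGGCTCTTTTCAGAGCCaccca
Hist1h2be (chr13:23585531-23585546, minus strand): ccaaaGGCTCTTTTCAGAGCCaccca
Hist1h4h (chr13:23531458-23531473, plus strand): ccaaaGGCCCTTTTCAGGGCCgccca
Hist1h4i (chr13:22040966-22040981, minus strand): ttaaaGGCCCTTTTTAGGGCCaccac
Hist2h4 (chr3:96262939-96262954, minus strand): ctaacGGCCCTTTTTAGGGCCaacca
Hist1h2bb (chr13:23747203-23747218, plus strand): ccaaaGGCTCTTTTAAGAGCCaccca
The form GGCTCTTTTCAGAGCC was the commonest, in 9 members that span H1, H2A, H2B and H3. The forms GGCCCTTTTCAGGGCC (3 members) and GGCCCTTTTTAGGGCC (2 members) were each found in H4 genes alone among the members. Hist1h2bb was the single member with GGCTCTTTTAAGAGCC. Over all 58797 protein-coding transcripts of the annotation, 47 held the stem-loop letters (0.0799%), and 44 of those 47 belonged to clustered histone symbols.

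A polyadenylation signal (AATAAA or ATTAAA, sense strand) within the last 40 bases of the annotated transcript was found in 9 of the 23 members, and 48.7% of all protein-coding transcripts had one. Among the 68 clustered histone symbols, 16 had such a signal and 52 did not. Of the 16, 9 were members and 7 had a mean of 10 or more counts. Of the 52, 14 were members and 1 had a mean of 10 or more counts. That 1 gene was Hist1h2bc, the most abundant member, whose annotated transcript of 1156 bases held neither the signal in its last 40 bases nor the stem-loop letters. The 9 members with the signal carried 59.9% of the members' summed CPM. The 8 members with a stem-loop and no such signal (Hist1h1e, Hist1h2ac, Hist1h2bb, Hist1h2bg, Hist1h2bj, Hist1h3d, Hist1h4c and Hist1h4d) carried 1.3%. Their annotated transcripts ran on past the stem-loop, by 23 bases in Hist1h2bb and Hist1h2bj and by 155 to 2010 bases in the others. The 6 members with neither, Hist1h2bc among them, carried 38.8%. These shares describe annotated ends, and the end used by each transcript was not measured. Some annotated transcripts were short, at 312 bases for Hist1h4k and 381 bases for Hist1h2bn and Hist2h2bb. A transcript annotated with little or no 3′ UTR could not show either mark there, so a missing mark does not describe the true end. How many of the 52 symbols this concerns was not counted. Of the 16 symbols with the signal, Hist2h3c1 and Hist1h2br had 0 counts. Of their 75-base words, 100% and 87.1% also occur in transcripts of other genes. Hist1h1t, also with the signal, had 0.0781 counts and 0% shared words. The part of shared words in the counts of either class was not tested.

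**Figure D1:**
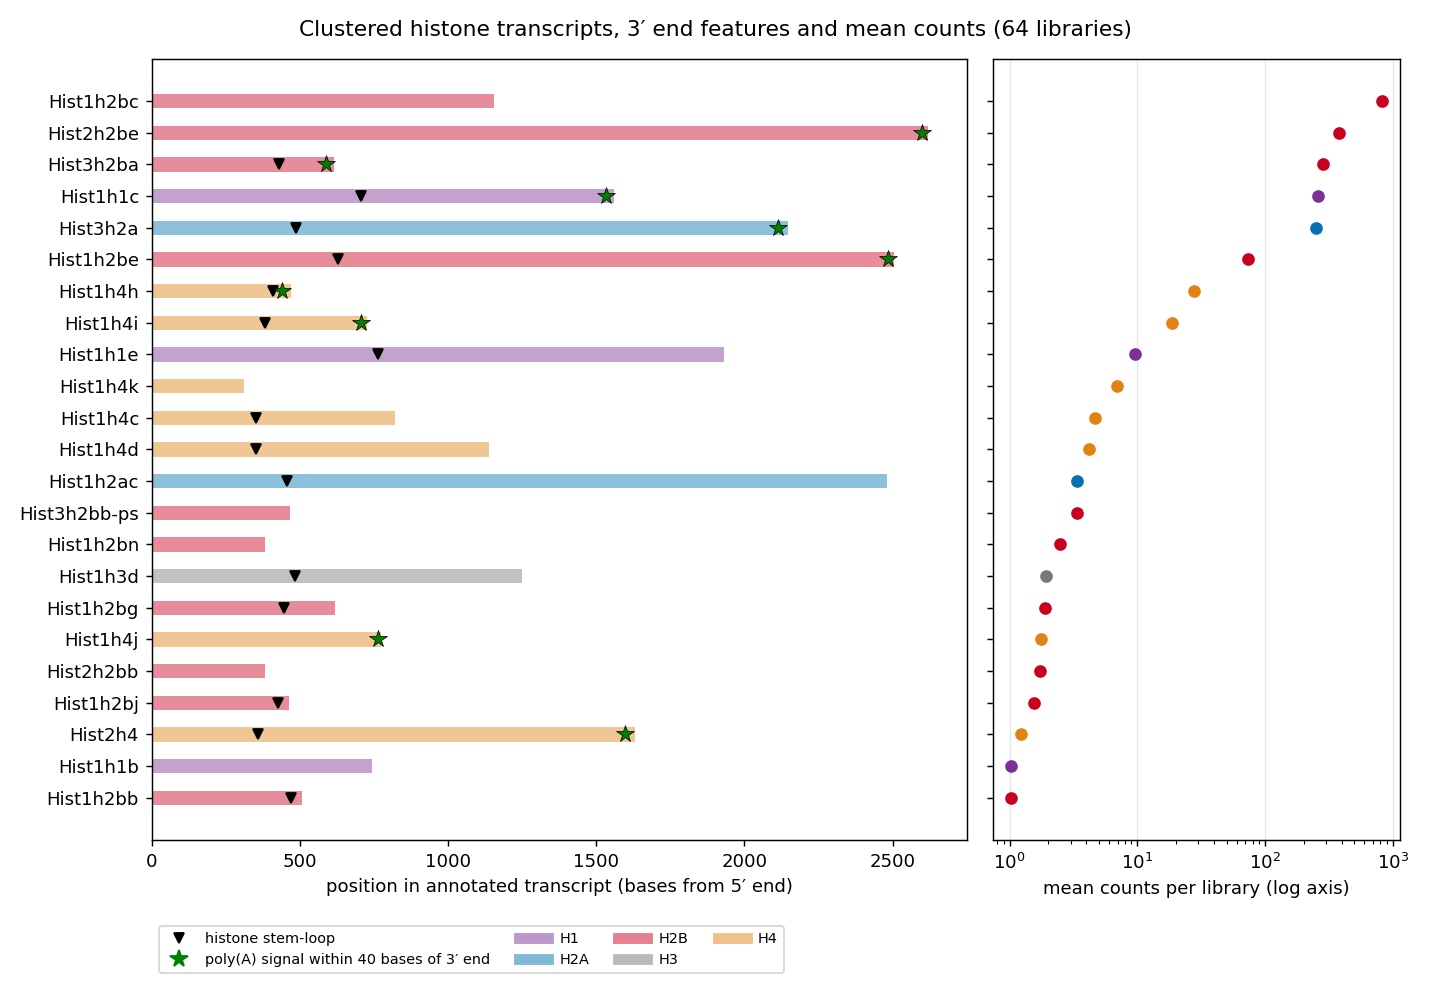
Annotated transcript of each of the 23 members, drawn to scale in bases from the 5′ end and coloured by histone class, with the stem-loop (triangle) and a poly(A) signal near the 3′ end (star). The right panel gives the mean count per library on a log axis; 7 of the 8 members at a mean of 10 or more counts have a star, and Hist1h2bc at 820 counts has neither mark.

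The promoters at Hist1h2bc and Hist2h2be are shown because these H2B genes were the most abundant members. RefSeq windows (build GRCm38.p6, from 250 bases before to 50 bases after a start site) were found for 19 of the 23 members and not for Hist1h2bc or Hist2h2be themselves. Both genes start inside the window of an H2A gene that is read in the opposite direction, Hist1h2bc at position 23684199 of chromosome 13 in the window of Hist1h2ac, and Hist2h2be at position 96221119 of chromosome 3 in that of Hist2h2ac. The lines give both windows 5′ to 3′ on the strand of the H2A gene, with capitals at ATTTGCAT (the octamer bound by Oct factors; reverse ATGCAAAT), CCAAT (reverse ATTGG) and TATAAA (reverse TTTATA), searched on both strands and counted whether or not motifs overlap.
Hist1h2ac window (chr13:23683910-23684209, minus strand): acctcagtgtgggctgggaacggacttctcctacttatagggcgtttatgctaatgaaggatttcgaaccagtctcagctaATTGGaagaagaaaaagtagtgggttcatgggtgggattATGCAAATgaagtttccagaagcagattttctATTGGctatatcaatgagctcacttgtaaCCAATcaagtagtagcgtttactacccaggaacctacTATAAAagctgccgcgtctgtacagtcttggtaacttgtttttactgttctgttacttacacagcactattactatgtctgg
Hist2h2ac window (chr3:96220831-96221130, minus strand): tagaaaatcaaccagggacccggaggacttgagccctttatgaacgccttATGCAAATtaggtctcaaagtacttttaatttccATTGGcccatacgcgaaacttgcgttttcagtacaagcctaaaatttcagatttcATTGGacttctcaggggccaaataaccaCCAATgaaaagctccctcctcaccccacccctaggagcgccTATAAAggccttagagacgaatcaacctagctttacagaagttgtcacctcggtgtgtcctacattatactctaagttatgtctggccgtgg
Each of these windows held 1 octamer, 3 CCAAT motifs and 1 TATAAA, the last in its forward form on the strand of the H2A gene. Over the 19 members with a window, the octamer was present in 6, against 1.74% of 32851 windows of all genes. CCAAT was present in 15 of 19 (37.4% of all windows) and TATAAA in 12 of 19 (13.6% of all windows). Counted over all clustered symbols with a window, the octamer was present in 7 of 16 H2B and 7 of 18 H2A symbols and in 0 of 6 H1, 0 of 10 H3 and 0 of 12 H4 symbols. Windows of neighbouring genes read in opposite directions can overlap, so 1 match may be counted for more than 1 gene. A match is a description of the letters in the window.

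H2B genes made up most of the measured mRNA of the clustered histone genes. The 10 H2B members carried 72.7% of the members' summed CPM, the 3 H1 members 12.5%, the 2 H2A members 11.8%, the 7 H4 members 2.98% and the single H3 member, Hist1h3d, 0.0887%. Summed over the 23 members, the level ranged from 59.9 to 111 CPM over the 64 libraries, with a median of 81.2 CPM. Hist1h2bc alone, an H2B gene, stood at 30.9 ± 4.64 CPM (SD, n = 64) and a mean of 820 counts. It was followed by the H2B genes Hist2h2be at 14.2 ± 2.95 CPM and Hist3h2ba at 10.6 ± 1.85 CPM, each SD over n = 64. The linker histone gene Hist1h1c stood at 9.70 ± 2.87 CPM and the H2A gene Hist3h2a at 9.42 ± 1.24 CPM. Next was the H2B gene Hist1h2be, at 2.76 ± 0.727 CPM. In GENCODE M21 (GRCm38) these genes lie at chr13:23684199-23692908 (Hist1h2bc), chr3:96221119-96223738 (Hist2h2be), chr11:58948920-58949533 (Hist3h2ba), chr13:23738808-23740367 (Hist1h1c), chr11:58954685-58956830 (Hist3h2a) and chr13:23583670-23621124 (Hist1h2be), the last on the minus strand and the others on the plus strand. Hist1h4h (H4) stood at 1.03 ± 0.388 CPM, Hist1h4i (H4) at 0.691 ± 0.234 CPM, Hist1h1e (H1) at 0.360 ± 0.156 CPM and Hist1h4k (H4) at 0.255 ± 0.128 CPM. The remaining 13 members lay between 0.0365 and 0.173 CPM. Expressed per kilobase of annotated exon, levels take the length of each gene into account. They are not corrected for reads lost to near-identical copies or overlapping genes, so the order between genes is approximate. Hist1h2bc was again the highest at 26.7 CPM per kb, followed by Hist3h2ba at 17.2, Hist1h1c at 6.22, Hist2h2be at 5.42 and Hist3h2a at 4.39 CPM per kb.

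Near-identical copies limit which of these genes a read of 75 bases can name. The share of a transcript's 75-base words that also occur, on either strand, in a transcript of another gene was 0% for Hist2h2be, Hist2h4 and Hist1h1b. It was 13.9% for Hist3h2ba, 6.66% for Hist1h1c, 27.1% for Hist1h2bc and 30.6% for Hist3h2a. For Hist1h2be it was 14.4%, and Hist1h2bc is among the genes that share words with it. It exceeded 50% for Hist1h4k (68.1%), Hist1h2bn (72.3%), Hist1h2bj (50.4%) and Hist2h2bb (100%), whose counts are therefore uncertain. Hist1h2be overlaps Hist1h1e on the same strand and Hist3h2a overlaps Trim17, so reads in the overlaps may have been left out or counted for the neighbour.

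**Figure D2:**
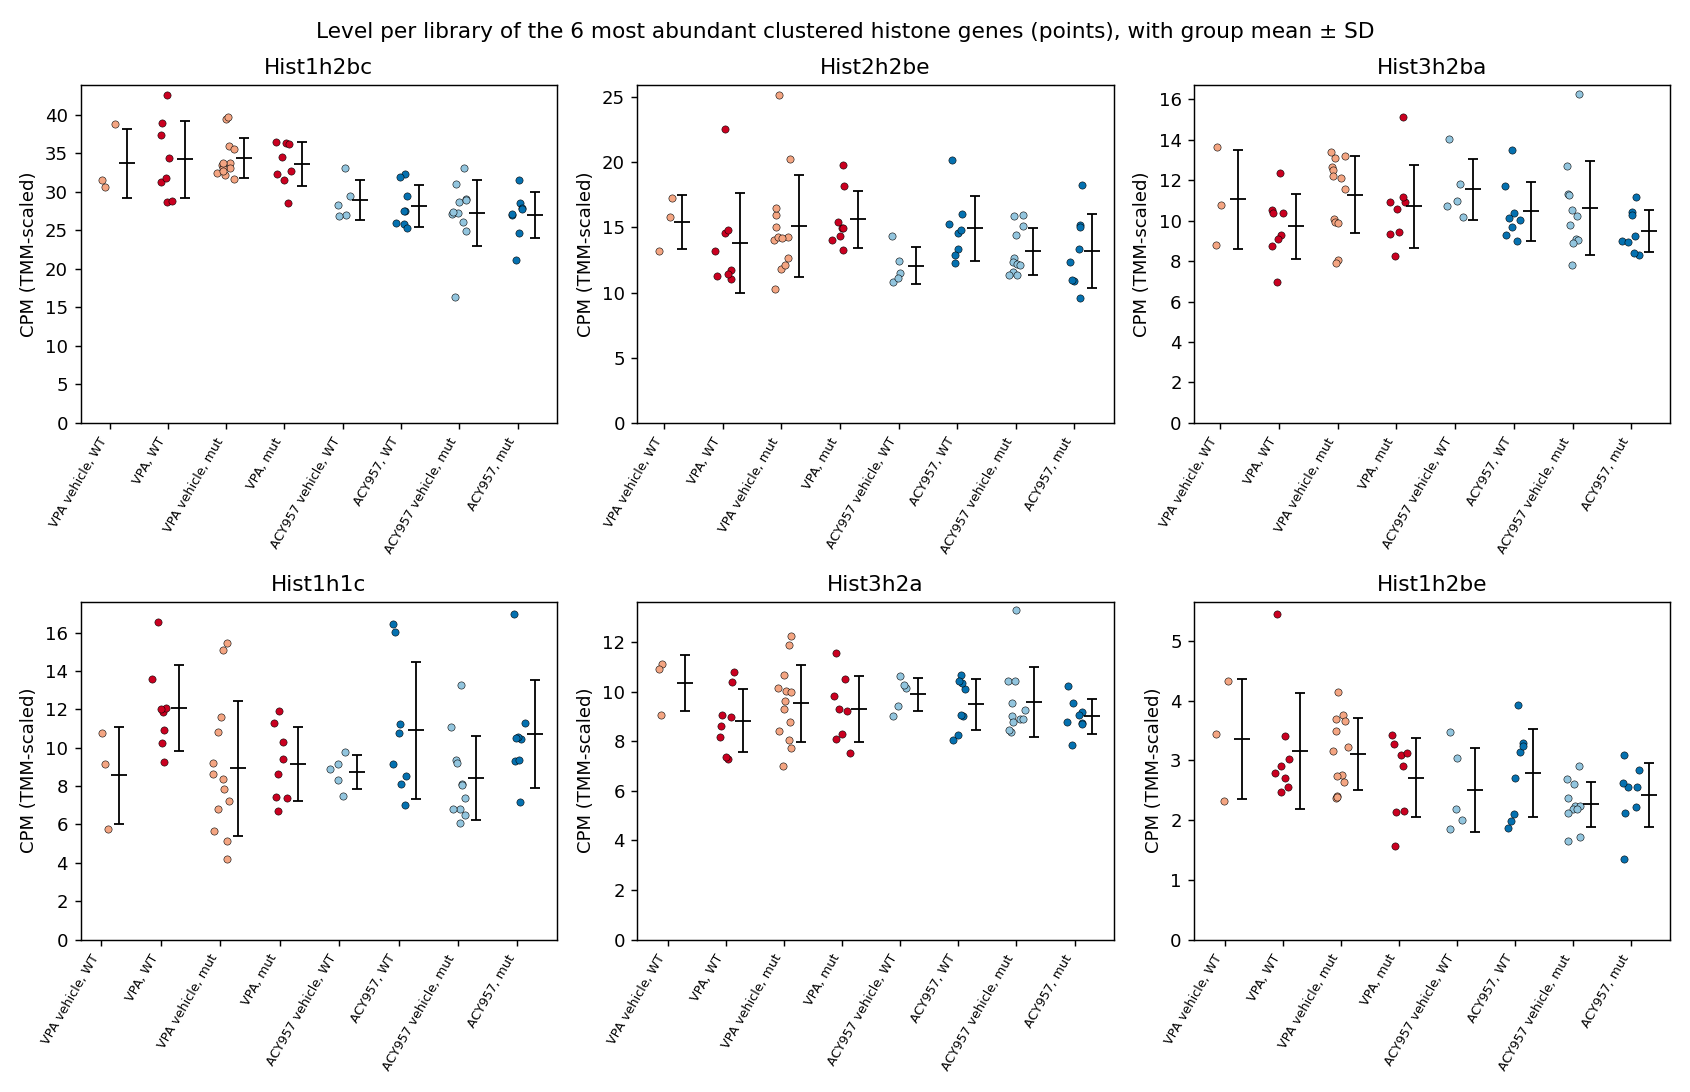
Level in CPM (TMM-scaled, axes from 0) of the 6 most abundant members in each library, by group, with bars at the group mean ± SD. For Hist1h2bc the 4 groups with VPA or its vehicle (group means 33.6 to 34.4 CPM) stand above the 4 with ACY957 or its vehicle (26.9 to 28.9 CPM).

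The first comparison asked whether VPA changed the clustered histone genes. In the edgeR quasi-likelihood test with Benjamini-Hochberg adjustment over 15634 genes, 0 of the 11 members with enough counts to be tested passed an adjusted p of 0.05 under VPA, taken as the mean over both labels. The background was 11 of all genes tested (0.0704%). At an unadjusted p under 0.05 the count was also 0 of 11, against 10.4% of all genes, and DESeq2 and limma voom called 0 members as well. By label, 0 of 11 passed in the wildtype-labelled mice (0.0256% of all genes) and 0 of 11 in the mutant-labelled mice (0.0576%), again with 0 at an unadjusted p under 0.05 in either (4.27% and 12.6% of all genes). On the log2 scale the median difference of the members was 0.07 under VPA, beside 0.00062 over all genes, and 6 members were higher and 5 lower.

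Hist1h2bc had the narrowest interval of the tested members under VPA. Its levels in the wildtype-labelled VPA group ran from 28.6 through a median of 33.1 to 42.5 CPM, beside 31.5, 30.7 and 38.8 CPM in the 3 vehicle mice. In the mutant-labelled VPA group they ran from 28.5 through 33.6 to 36.5 CPM, beside 31.6, 33.5 and 39.7 CPM as lowest, median and highest in its vehicle. The groups overlapped in both labels, and the log2 difference was -0.01 with a 95% interval of -0.14 to 0.13. Hist2h2be was also near 0 under VPA, at -0.05 (interval -0.27 to 0.16). The 3 members with the smallest p under VPA were Hist3h2a, Hist1h1c and Hist3h2ba. Hist3h2a, an H2A gene, ran from 7.27 through 8.80 to 10.8 CPM in the wildtype-labelled VPA group, where 0 of 8 libraries lay above the vehicle median of 10.9 CPM. In the mutant-labelled VPA group it ran from 7.51 through 9.25 to 11.6 CPM, inside the vehicle range of 7.0 to 12.3 CPM. The log2 difference was -0.13 (SE 0.08; edgeR p = 0.0857, adjusted p = 0.536). Hist3h2ba, its neighbour in the Hist3 cluster, stood at -0.13 (SE 0.10; adjusted p = 0.658). By label, the 3 smallest p were those of Hist1h1c, Hist3h2a and Hist3h2ba in the wildtype-labelled mice and of Hist1h2be (-0.20), Hist1h4i (0.24) and Hist1h4h (0.25) in the mutant-labelled mice, none of which passed.

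Hist1h1c, a linker histone gene, had, among the 11 tested members, the only unadjusted p under 0.05 by edgeR in a comparison of a drug with its vehicle. In the wildtype-labelled VPA group it ran from 9.26 through 11.9 to 16.6 CPM, and the 3 vehicle mice stood at 5.77, 9.15 and 10.7 CPM. All 8 VPA libraries lay above the vehicle median and 6 above the highest vehicle library. In the mutant-labelled VPA group it ran from 6.71 through 9.02 to 11.9 CPM, inside the vehicle range of 4.18 to 15.5 CPM. The log2 difference was 0.49 (interval -0.04 to 1.03) in the wildtype-labelled and 0.03 (interval -0.32 to 0.38) in the mutant-labelled mice, and 0.26 (SE 0.16; adjusted p = 0.563) over both. Under ACY957 it ran from 7.03 through 9.96 to 16.4 CPM in the wildtype-labelled group, beside 7.48, 8.88, 9.78, 9.17 and 8.34 CPM in the 5 vehicle mice. In the mutant-labelled group it ran from 7.18 through 10.5 to 17 CPM, beside 6.08, 8.06 and 13.3 CPM as lowest, median and highest in the vehicle. Of the ACY957 libraries, 5 of 8 wildtype-labelled and 7 of 8 mutant-labelled ones lay above their vehicle's median, and the ranges overlapped in both labels. The log2 difference over both labels was 0.33 (SE 0.14, interval 0.05 to 0.62), with an edgeR p of 0.024 that did not hold after adjustment over all genes (adjusted p = 0.535).

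The second comparison asked the same of ACY957. Over both labels, 0 of 11 members passed the edgeR test under ACY957 (0.0256% of all genes), 1 had an unadjusted p under 0.05 (Hist1h1c, against 8.19% of all genes), and DESeq2 and limma voom called 0. By label, 0 of 11 passed in the wildtype-labelled and 0 of 11 in the mutant-labelled mice (0.0064% of all genes in each), with 0 at an unadjusted p under 0.05 by edgeR in either (3.32% and 6.31% of all genes). The median log2 difference of the members was 0.13, beside 0.0025 over all genes, and 7 members were higher and 4 lower. Hist1h2bc was again close to 0, at -0.03 (interval -0.15 to 0.10). Its levels ran from 25.2 through 27.5 to 32.3 CPM in the wildtype-labelled ACY957 group, beside 26.9, 29.4, 28.2, 33.1 and 26.9 CPM in the vehicle mice. After Hist1h1c, the smallest p under ACY957 were those of Hist3h2ba (-0.16, SE 0.09; adjusted p = 0.686) and Hist2h2be (0.16, SE 0.10; adjusted p = 0.747).

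Hist2h2be had the smallest p of the members in the wildtype-labelled ACY957 mice. Its 5 vehicle libraries stood at 11.5, 10.8, 12.4, 14.4 and 11.1 CPM, and the 8 ACY957 libraries ran from 12.3 through 14.7 to 20.2 CPM. All 8 lay above the vehicle median and 5 above the highest vehicle library. In the mutant-labelled mice the ACY957 libraries ran from 9.57 through 12.9 to 18.2 CPM and the vehicle libraries from 11.3 through 12.4 to 16 CPM. The log2 differences were 0.31 (interval -0.0020 to 0.62, adjusted p = 0.999) and 0.0035 (interval -0.25 to 0.25), and neither passed. Among the H4 genes the intervals were wide, since their counts were low. Hist1h4k stood at 0.45 (interval -0.14 to 1.03) and Hist1h4d at -0.47 (interval -1.21 to 0.28) under ACY957, and Hist1h4i at 0.13 (interval -0.22 to 0.49). By label, the 3 smallest p were those of Hist2h2be, Hist1h1c and Hist3h2ba in the wildtype-labelled and of Hist1h1c, Hist1h4k and Hist3h2ba in the mutant-labelled mice.

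**Figure D3:**
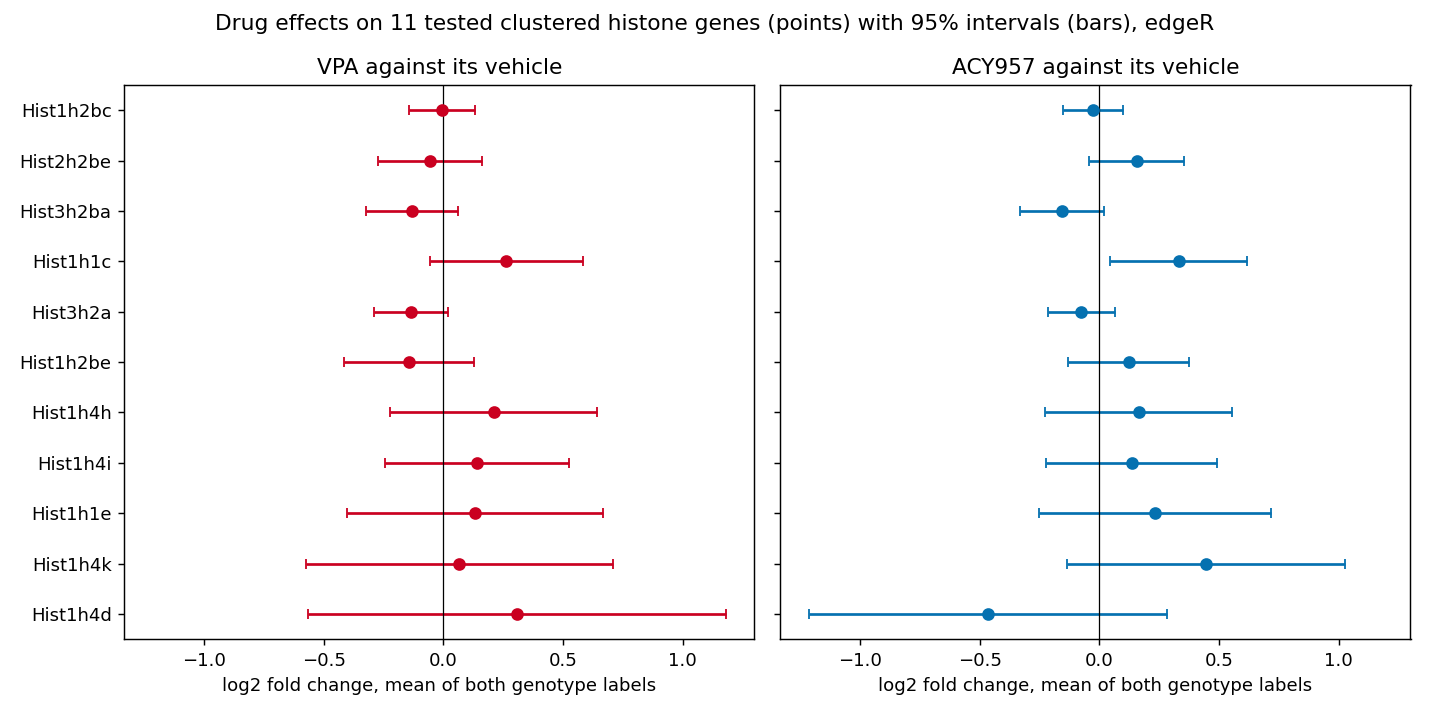
Log2 fold change (points) with its 95% interval (bars) of the 11 tested members under VPA and under ACY957, each against its own vehicle and averaged over both genotype labels. The intervals are narrowest for Hist1h2bc (-0.14 to 0.13 and -0.15 to 0.10) and include 0 for every member except Hist1h1c under ACY957 (0.05 to 0.62).

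The difference between the drug effects was tested directly, and 0 of 11 members passed (edgeR, 0.0128% of all genes), with 0 at an unadjusted p under 0.05 (6.09% of all genes) and 0 by DESeq2 and limma voom. The VPA effect minus the ACY957 effect was 0.02 for Hist1h2bc (interval -0.16 to 0.21), -0.07 for Hist1h1c (-0.49 to 0.36) and -0.21 for Hist2h2be (-0.50 to 0.08). The dependence of each drug effect on the genotype label was also tested: 0 of 11 members passed for VPA (0.0064% of all genes) and 0 of 11 for ACY957 (0% of all genes), with 0 at an unadjusted p under 0.05 in both (2.84% and 1.84% of all genes) and 0 by DESeq2 and limma voom.

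Mutant-labelled and wildtype-labelled mice were compared within each treatment, and 0 of 11 members passed in any of the 4 comparisons by edgeR, DESeq2 or limma voom. The share of all genes called was 1% under VPA, 0% under ACY957, 0.0064% under the VPA vehicle and 0.0128% under the ACY957 vehicle. Hist1h1c under VPA had the only unadjusted p under 0.05 by edgeR (1 of 11, against 15.7% of all genes), and the counts were 0 of 11 under ACY957 (4.84%), the VPA vehicle (5.15%) and the ACY957 vehicle (3.61%). It was lower in the mutant-labelled VPA libraries by a log2 difference of -0.40 (SE 0.19; p = 0.0405, adjusted p = 0.292), with the ranges of 6.71 to 11.9 and 9.26 to 16.6 CPM overlapping. The 12 members with too few counts for the main test were tested in a repeat without the low-count filter. In that repeat, 0 of all 23 members passed under VPA (18 genes, 0.106% of 16943 tested) and 0 of 23 under ACY957 (4 genes, 0.0236%), both over the 2 labels, with 1 and 4 members at an unadjusted p under 0.05 by edgeR. Between the labels, 0 of 23 passed under VPA (0.897% of all genes), ACY957 (0%), the VPA vehicle (0.0177%) and the ACY957 vehicle (0.0118%). At an unadjusted p under 0.05 by edgeR the counts were 2, 3, 0 and 1 members. Under VPA the smallest adjusted p between labels was that of Hist1h2ac (edgeR, 0.111). In the drug comparisons over both labels, the smallest adjusted p among these 12 was that of Hist2h4 under ACY957, an H4 gene at a mean of 1.22 counts (adjusted p = 0.401). It had 1 count over the 8 wildtype-labelled ACY957 libraries and 9 over the 5 vehicle libraries, and 10 over 8 and 18 over 11 in the mutant-labelled mice. For VPA against its vehicle it was that of Hist1h2bb, an H2B gene at 1.03 counts (adjusted p = 0.446). No fold is given for either gene at these counts. The 3 wildtype-labelled vehicle libraries held 0 counts of Hist1h2bb, the 8 wildtype-labelled VPA libraries 13 counts in all, and the mutant-labelled groups stood at 0.0469 CPM under VPA and 0.0261 CPM under its vehicle.

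Hist1h2bc stood higher in the VPA arm of the study than in the ACY957 arm, with and without the drug. In the VPA arm (drug and vehicle, 32 libraries) it ran from 28.5 through a median of 33.3 to 42.5 CPM, and in the ACY957 arm (32 libraries) from 16.3 through 27.5 to 33.1 CPM. Every one of the 32 VPA-arm libraries lay above the median of the ACY957 arm, 17 lay above its highest library, and 20 ACY957-arm libraries lay below the lowest VPA-arm library. Such counts of libraries were not made over all genes. Arm against arm, edgeR called 15.9% of all genes tested, and 30.3% had an unadjusted p under 0.05. The value of 16.3 CPM is ACY957 vehicle mutant replicate 11, with the next library of that arm at 21.2 CPM, and the same library was the highest of all for Hist3h2ba (16.3 CPM). Over 72 alternatives, leaving out this library among them, the arm difference of Hist1h2bc described below ranged from 0.26 to 0.31, with an adjusted p of at most 0.000388. The planned comparison of the vehicles with each other gave a log2 difference of 0.28 (SE 0.07, interval 0.14 to 0.42; edgeR p = 0.000207, adjusted p = 0.0678). Of the 16 VPA-vehicle libraries, 16 lay above the median and 9 above the highest of the 16 ACY957-vehicle libraries. In that comparison 0 of 11 members passed (24 genes, 0.154% of all), 3 had an unadjusted p under 0.05 (13.8% of all genes), limma voom called 0, and DESeq2 called 1, Hist1h2bc (log2 difference 0.28, adjusted p = 0.0215). Of 40 alternatives, 6 called Hist1h2bc, and the adjusted p ranged from 0.0215 to 0.218. The edgeR call was made (adjusted p from 0.0354 to 0.0495) without the libraries discordant in clock output, without those low in Th, and without ACY957 vehicle wildtype replicate 4, mutant replicate 1 or mutant replicate 9. It was not made with the compared groups alone (adjusted p = 0.117) or without the 16 vehicle libraries from mouse 48 on (adjusted p = 0.0638).

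The other genes with an unadjusted p under 0.05 between the vehicles were both H2B genes. Hist1h2be stood at 0.44 (SE 0.14; adjusted p = 0.14): it ran from 2.37 through 3.16 to 4.15 CPM in the mutant-labelled VPA vehicle and from 1.65 through 2.24 to 2.90 CPM in the mutant-labelled ACY957 vehicle. Hist2h2be stood at 0.28 (SE 0.11; adjusted p = 0.249): the corresponding values were 10.3, 14.2 and 25.2 CPM and 11.3, 12.4 and 16 CPM. For both genes the groups overlapped. Hist3h2ba, the remaining tested H2B gene, stood at 0.01 (interval -0.19 to 0.21), Hist1h1c at 0.03 and Hist3h2a at 0.03.

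Comparisons added after the vehicles had been seen set the drug-treated libraries against each other and the arms as a whole. VPA against ACY957 libraries gave 1 of 11 members called, Hist1h2bc, higher under VPA by 0.30 (SE 0.06; edgeR adjusted p = 0.000692), with 16 of 16 VPA libraries above the ACY957 median. The background was 1917 genes, or 12.3% of all tested, and at an unadjusted p under 0.05 it was 1 member and 27.4% of all genes. The members' share was no higher than that of all genes at either threshold. Arm against arm, which pools the libraries of the preceding comparisons, gave 2 of 11 called, a share near the background of 2489 genes or 15.9% of all tested. At an unadjusted p under 0.05 it gave 3 members, against 30.3% of all genes. Hist1h2bc was higher in the VPA arm by 0.29 (SE 0.05; adjusted p = 3.53e-05) and Hist1h2be by 0.31 (SE 0.09; adjusted p = 0.0173). Without VPA vehicle wildtype replicate 3 the count was 1, with Hist1h2be at 0.25 (adjusted p = 0.0879). Without the libraries discordant in clock output it was 3, with Hist2h2be added (0.23, adjusted p = 0.0321). The labels give no date or run for either arm, so an effect of the vehicle cannot be told apart from anything else that differed between the arms.

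**Figure D4:**
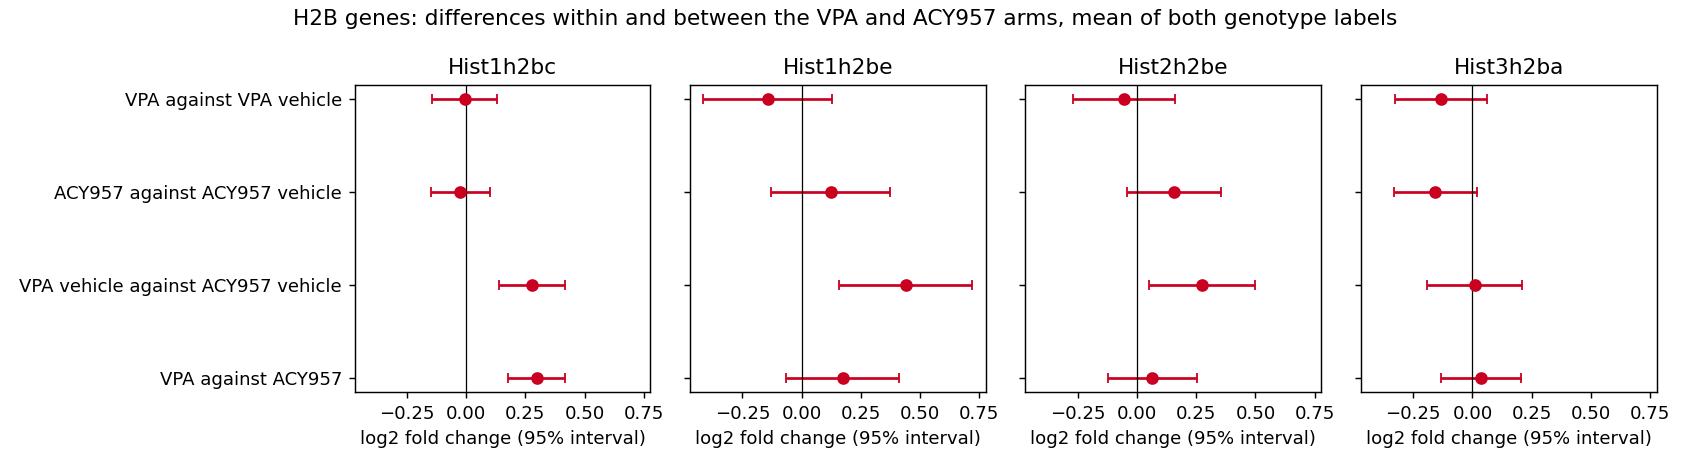
Log2 fold change with its 95% interval of the 4 tested H2B genes in 4 comparisons, averaged over both genotype labels. For Hist1h2bc the intervals of each drug against its own vehicle include 0, whereas that of the vehicles (0.14 to 0.42) and that of VPA against ACY957 (0.18 to 0.42) do not.

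Genes that work with the clustered histones were examined as whole lists. The replication-independent histones are for the most part made throughout the cell cycle and from ordinary polyadenylated mRNAs, and all 11 listed were tested. Of these, 0 of 11 passed under VPA (median 0.08) and 0 of 11 under ACY957 (median 0.01), both over the 2 labels. At an unadjusted p under 0.05 by edgeR the counts were 0 and 4. Of all genes, 10.4% under VPA and 8.19% under ACY957 had such a p, and these shares also apply to the lists that follow. The smallest p under ACY957 was that of the linker histone gene H1f0, at 0.23 (SE 0.07; edgeR p = 0.000991, adjusted p = 0.203), next to 0.33 for the clustered linker gene Hist1h1c. Next was H2afj, an H2A variant gene, at -0.17 (adjusted p = 0.511). Of the 24 genes for histone mRNA 3′ end processing, export and decay, 23 were tested, and 0 passed under VPA and 0 under ACY957 (1 and 0 at an unadjusted p under 0.05). Cdk9, a kinase of transcription elongation, had the smallest p of that list under VPA, at 0.14 (SE 0.04; adjusted p = 0.201). Of the 19 chaperones and acetyltransferases of new histones, 0 passed under either drug (2 and 1 at an unadjusted p under 0.05). Among the 4 class I deacetylases, Hdac1, Hdac2, Hdac3 and Hdac8, 0 passed under either drug (0 and 0 at an unadjusted p under 0.05), with medians of -0.0059 under VPA and 0.01 under ACY957. In the DNA replication and mitosis list, 20 of 24 genes were tested and 0 passed under either drug over both labels, with medians of -0.08 and -0.08 and 4 and 3 genes at an unadjusted p under 0.05. Mcm2, a subunit of the replicative helicase, fell in the mutant-labelled VPA mice by 0.52 on the log2 scale (adjusted p = 0.0108), 1 of 20 against 0.0576% of all genes. That call was not made by limma voom, with the compared groups alone, or without the 16 vehicle libraries from mouse 48 on, each of which called 0 genes in all in that comparison. Between the arms, 5 of these 20 were higher in the VPA arm (Pcna, Cdk1, Ccna2, Top2a and Rrm2), against 15.9% of all genes called in either direction. Among the replication-independent histones H3f3a (0.19, adjusted p = 0.000597) and H2afv were higher in the VPA arm and H1f0 was lower (-0.19, adjusted p = 0.00646). The other lists also held calls between the arms. In the 3′ end processing list Ncbp1 and Lsm1 were higher in the VPA arm, and Cpsf1 and Upf1 were lower. Among the chaperones Asf1a and Rbbp7 were higher, and Cabin1 and Ssrp1 were lower.

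Markers of other cell types moved with some of the members. Hist3h2ba varied with the mean level of 10 oligodendrocyte markers over the 64 libraries (Pearson r = 0.58, permutation p = 1e-05, the smallest that 100000 permutations can give, adjusted p = 0.00021 over 42 relations; Spearman rho = 0.60, permutation p = 1e-05, adjusted p = 0.00042). Without the 2 libraries farthest from the median marker level r was 0.56. Within the VPA arm r was 0.68 and within the ACY957 arm 0.46, with n = 32 each. Permutations here and below were made over all 64 libraries without regard to group or arm. Differences between groups or arms that a gene and the markers share therefore enter these p. All 10 markers were tested and none was at 0. Their summed level ran from 12890 to 21006 CPM in the mutant-labelled VPA vehicle and from 9452 to 16390 CPM in the mutant-labelled ACY957 group, the extremes of the 8 groups by median (17982 and 11999 CPM). Their median log2 difference was -0.19 under VPA and -0.18 under ACY957, with 0 of 10 called by edgeR in either (4 and 4 at an unadjusted p under 0.05), beside -0.13 and -0.16 for Hist3h2ba. Their part in the values of Hist3h2ba was not tested.

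**Figure D5:**
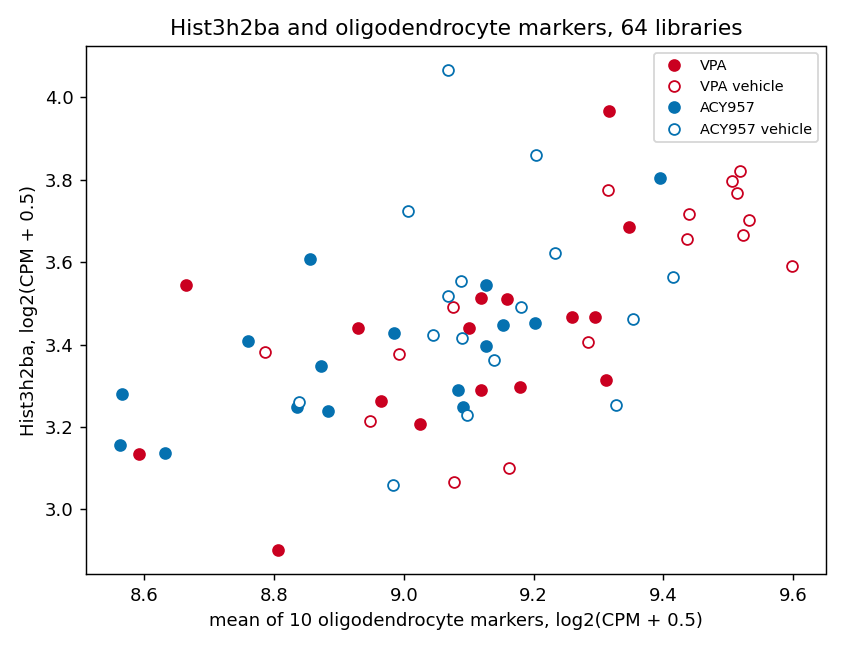
Each point is 1 of the 64 libraries, with the mean log2(CPM + 0.5) of 10 oligodendrocyte markers on the x axis and log2(CPM + 0.5) of Hist3h2ba on the y axis, filled for drug and open for vehicle. Hist3h2ba is higher where the markers are higher (r = 0.58), in the VPA arm (r = 0.68) and in the ACY957 arm (r = 0.46).

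Hist1h2bc varied with 7 endothelial markers (Pearson r = 0.52, permutation p = 1e-05, adjusted p = 0.00021; Spearman rho = 0.54, permutation p = 2e-05, adjusted p = 0.00042). Without the 2 libraries farthest from the median, r was 0.50, and it was 0.52 within the VPA arm and 0.39 within the ACY957 arm. No p was computed within an arm for any of these relations. Of these markers 3 of 7 were higher in the VPA arm (Ly6c1, Itm2a and Slco1a4) and 0 lower, against 15.9% of all genes called in either direction, the median of the 7 log2 differences between arms was -0.00081, and none was at 0. Their summed level ran from 400 to 572 CPM in the mutant-labelled VPA vehicle and from 323 to 486 CPM in the mutant-labelled ACY957 group. Of the oligodendrocyte markers, 4 of 10 were higher in the VPA arm and 0 lower, with a median of 0.14. Other cell type lists held such calls too. Tmem119 and P2ry12 (microglia), Gjb6 (astrocytes) and Neu4 (oligodendrocyte precursors) were higher in the VPA arm. Syt1 (neurons) and Cspg4 (oligodendrocyte precursors) were lower. A further 3 relations passed adjustment over the pooled arms. For Hist2h2be and the endothelial markers Pearson r was 0.42 (permutation p = 0.00066, adjusted p = 0.00924) and Spearman rho 0.39 (permutation p = 0.0014), with r = 0.45 within the VPA arm and 0.24 within the ACY957 arm. For Hist1h2bc and the oligodendrocyte markers r was 0.37 (permutation p = 0.0026, adjusted p = 0.0273) and rho 0.42 (permutation p = 0.00053), with r = 0.14 and 0.35 within the arms. For Hist1h2bc and the dopamine neuron markers r was -0.38 (permutation p = 0.0046, adjusted p = 0.0386) and rho -0.37 (permutation p = 0.0025), with r = -0.33 and -0.25 within the arms. Without the 2 libraries farthest from the median marker level, r was 0.45, 0.33 and -0.43 in the same order. The part of these markers in the difference of Hist1h2bc between the arms was not tested.

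The genes whose levels followed the 3 leading members most closely were found by Pearson correlation of log2 CPM over the 64 libraries among all genes tested, as a description of libraries that share their depth and makeup. For Hist1h2bc they were Sept2 (0.81), Uqcrb (0.77), Jam2 (0.76), E2f5 (0.76) and Tmco1 (0.76). For Hist2h2be they were Rps3a1 (0.70), Selenbp1 (0.70), Scnm1 (0.70), Rbm8a (0.68) and Atp6v0e (0.68). For Hist3h2ba they were Shisa4 (0.76), Bdh1 (0.74), Ppp1r14a (0.74), Pllp (0.73) and Higd2a (0.71).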

How the data were processed

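Gene expression was measured by poly(A) RNA-seq (stranded libraries, reads of 75 bases) in tissue punches from 64 mice. Values are raw counts per gene symbol as deposited by the authors; per the study's design text, reads were aligned with TopHat2 2.0.9 to mm10 and counted with HTSeq 0.6.1 in union mode, whereas the submitters' processing notes name HISAT2 and Trimmomatic, so the aligner is uncertain. The gene annotation used for counting was not given in the sources used here. Reads that fit several copies of a histone gene may have been lost in the counting.

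Here, counts were tested with edgeR 4.0.16 in R 4.3.3 (TMM scaling, the low-count filter of edgeR by group, 15634 genes kept, quasi-likelihood test, 2-sided, 1 model with a mean for each of 8 groups, Benjamini-Hochberg over all genes, threshold 0.05). The 95% intervals use the standard error implied by the test. Scripts were tested on simulated counts. Levels are CPM over TMM-scaled totals. Individual mice are the replicates. Alternatives were DESeq2 1.42.0, limma 3.58.1 voom, DESeq2 size factors in edgeR, no low-count filter, the compared groups alone, and leaving out each library, the libraries discordant in clock output (split at the widest gap of a score of 8 genes, 4.50 to 5.00 log2 CPM), those low in Th, or 16 vehicle libraries labelled mutant from mouse 48 on. Depth limits the genes under about 10 counts, whose intervals span several-fold.

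The members and gene lists were chosen with earlier results of these data known. Genes named are every member called in a drug or genotype comparison, the 10 members with the highest mean CPM, the 3 with the smallest p in each drug comparison, and of the other lists the genes called in a drug comparison or otherwise those with the smallest p. Cell type lists are oligodendrocytes, their precursors, astrocytes, microglia, endothelial cells, neurons and dopamine neurons, and a further list holds RNAs without a poly(A) tail. Sequences come from GENCODE M21 transcripts and RefSeq promoter windows. Some genes of the lists and of the nearest-gene search are not reported here.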

Additional observations from a re-analysis of the deposited data

Results flagged for a closer look

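Among 55 pairs of a tested member and a group of 4 to 10 libraries, 4 had a library that stood apart from the rest by Dixon's criterion, which chance gives in about 1 of 20 pairs. VPA wildtype replicate 3 was the highest of its group for Hist2h2be, at 22.5 CPM with the next library at 14.8 CPM. The same library was the highest for Hist1h2be, at 5.45 CPM with the next at 3.41 CPM, and it is also 1 of the 4 libraries low in Th. ACY957 mutant replicate 6 was the lowest of its group for Hist1h2be, at 1.35 CPM with the next at 2.12 CPM. ACY957 vehicle wildtype replicate 1 was the lowest for Hist1h4h, at 0.396 CPM with the next at 1.16 CPM.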

How the results depend on the processing

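In the 14 planned comparisons the count of members called was 0, and 458 of 464 alternative counts were 0. The 6 others were all in the vehicle comparison, where Hist1h2bc gave a count of 1 by DESeq2 (139 genes called in all against 24 by edgeR, with an adjusted p for 2 members), 1 without the libraries discordant in clock output and 1 without those low in Th, and 0 to 1 when each library was left out. Between the arms the count was 2, and 1 to 2 when each library was left out. In VPA against ACY957 it was 1 in every alternative run. Of 5019 alternative values for single members in the planned comparisons, 6 were called, all of Hist1h2bc. Counts over all genes were less stable: DESeq2 called 39 genes under VPA (edgeR 11), 26 under ACY957 (edgeR 4) and 262 between labels under VPA (edgeR 157). Under VPA, 0 genes were called with the compared groups alone and 1 without the 16 vehicle libraries from mouse 48 on. In the mutant-labelled VPA mice, 0 were called under each of these and by limma voom, against 9. Under ACY957, 55 were called without the libraries discordant in clock output. Leaving out each library moved the 11 genes called under VPA to between 2 and 68, the 9 in the mutant-labelled VPA mice to between 3 and 269, and the 157 between labels under VPA to between 51 and 504. No paired analysis was possible because each mouse carries its own number and the labels link no mice across groups. Replicate numbers given here only count libraries within a group. Depth limits what can be said of the 15 members below a mean of 10 counts.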

Other observations

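RNAs that have no poly(A) tail were looked up as a gauge of how much untailed RNA the libraries hold. Of 22 such RNAs, 15 were in the table and 3 were tested: Rpph1, the RNA of RNase P, at a mean of 45.2 counts, Rmrp, the RNA of RNase MRP, at 19.2 counts, and Snora81, a small nucleolar RNA, at 6.16 counts. Rnu7, the small nuclear RNA of the complex that cuts histone pre-mRNA behind the stem-loop, was listed at 0 counts in all libraries. Of the 3 tested, 0 passed under VPA (edgeR, 0 at an unadjusted p under 0.05) and 0 under ACY957, where 2 had an unadjusted p under 0.05: Rmrp at -1.18 (adjusted p = 0.424) and Rpph1 at -0.65 (adjusted p = 0.583). By label, the median of the 3 was -1.28 in the mutant-labelled mice (3 of 3 at an unadjusted p under 0.05) and -0.19 in the wildtype-labelled mice (0 of 3). Their summed level, all 15 included, had group medians from 1.78 to 2.80 CPM, and 1 mutant-labelled ACY957 vehicle library stood at 25 CPM, beside a median of 2.32 CPM in its group; its part in these differences was not tested. The 8 members with a stem-loop and no poly(A) signal near the end had group medians from 0.748 to 1.14 CPM, with single libraries from 0.437 to 1.98 CPM. All 8 are annotated to run on past the stem-loop, by 23 to 2010 bases. Whether their reads came from untailed RNA was not tested.

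Aqp4, the water channel of astrocytes, was the 1 cell type marker called in a drug comparison over both labels: it fell by 0.55 on the log2 scale under VPA (edgeR adjusted p = 0.0392). It is 1 of 8 astrocyte markers, and 0.0704% of all genes were called. With the compared groups alone 0 genes in all were called in that comparison, Aqp4 included. The summed level of the 8 astrocyte markers did not fall in both labels. Its medians under VPA and its vehicle were 5583 and 5919 CPM in the wildtype-labelled mice. They were 6281 and 5971 CPM in the mutant-labelled mice. By edgeR over both labels, 0 markers passed under VPA and 0 under ACY957 among 7 of oligodendrocyte precursors, 8 of microglia, 7 of endothelial cells, 8 of neurons and 8 of dopamine neurons, and 0 of the 8 clock output genes passed. At an unadjusted p under 0.05 these lists held at most 1 gene each under VPA and at most 2 each under ACY957. The dopamine neuron markers had a median of -0.17 under VPA and -0.08 under ACY957, with 0 of 8 at an unadjusted p under 0.05 in either, and 3 of the 4 libraries low in Th had received VPA. The clock output genes had medians of -0.21 and -0.12, with 8 of 8 below 0 under each drug and 0 and 2 at an unadjusted p under 0.05. These same 8 genes make up the score by which libraries were discordant with their label. Among mutant-labelled mice, 6 of 13 VPA vehicle and 1 of 8 VPA libraries were discordant. For ACY957 it was 3 of 11 vehicle and 2 of 8 drug libraries. Wildtype-labelled groups held 0, except for 1 of 8 under ACY957. The part of these libraries in the signs was not tested.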
